A study of Mus musculus with 16 samples.

Results

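Amino acid transporters were followed in mouse kidney RNA as the genes whose array symbol begins with Slc1a, Slc3a, Slc6a, Slc7a, Slc36a, Slc38a or Slc43a and a number. Slc7a11, Slc6a6 and Slc6a12 were left out, so 3 matching symbols were removed. The rule found 61 of the 19938 genes measured. It reads symbols only, but it was set with earlier results of these data known. Of these, 59 encode carriers or their heavy chains. The other 2, Slc6a19os and Slc7a6os, have matching symbols because they are named for lying on the opposite strand of a carrier gene. The reference annotation lists Slc6a19os as a long non-coding RNA and Slc7a6os as protein-coding.

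The arrays measured halved kidneys of 4 groups, 1 array per labelled biological replicate. Per the design text, all mice were transgenic and carried a renal tubular Vhl deletion that doxycycline induces. The publication it cites describes this deletion as Pax8-rtTA-based. Mice labelled VHL-KO/AKI (n = 5) received doxycycline under the skin 4 days before death, at 0.1 mg for each 10 g of weight. They also received glycerol of 50% strength into a hind limb muscle, at 0.05 ml for each 10 g. Mice labelled AKI (n = 5) received the glycerol without doxycycline. Glycerol causes muscle breakdown and acute kidney injury, and both injured groups went without drinking water for the 20 h that preceded the injection and the 24 h that followed it. VHL-KO mice (n = 3) received doxycycline without glycerol, and Control mice (n = 3) were untreated. The genotype label reads wt for the AKI and Control mice, although the design text calls all mice transgenic. Mice of both sexes weighed 24 to 31 g, and no label gives the sex or age of an animal or the time between glycerol and death. No group received doxycycline without the deletion or water withdrawal without glycerol. The labels do not tie an array to a named animal, so p-values measure the spread between these replicates.

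The kidney tubule recovers nearly all amino acids that the glomerulus filters. Apical carriers of the brush border take them from the tubular fluid together with sodium, protons or a second amino acid, and basolateral carriers pass them on to the blood. Several carriers work as pairs of a light chain that transports and a heavy chain (Slc3a1 or Slc3a2) that brings it to the membrane. Other members, such as Slc38a2 and Slc7a5, feed cells that grow or lack amino acids, and their genes are known targets of the transcription factor ATF4. The von Hippel-Lindau protein marks hypoxia-inducible factors (HIF) for breakdown, so its loss leaves these factors stable.

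The promoters of the 4 members that passed the test between VHL-KO/AKI and AKI kidneys are shown because this comparison bears on the deletion. Each run is the 250 bases before the annotated start, 5′ to 3′ on the gene's own strand, from RefSeq (GRCm38.p6). All 4 genes lie on the minus strand: Slc38a2 at chr15:96699729-96699978, Slc3a2 at chr19:8713898-8714147, Slc1a3 at chr15:8710808-8711057 and Slc38a10 at chr11:120151352-120151601. Capitals mark the core of the hypoxia response element, ACGTG or GCGTG, read on either strand.
Slc38a2: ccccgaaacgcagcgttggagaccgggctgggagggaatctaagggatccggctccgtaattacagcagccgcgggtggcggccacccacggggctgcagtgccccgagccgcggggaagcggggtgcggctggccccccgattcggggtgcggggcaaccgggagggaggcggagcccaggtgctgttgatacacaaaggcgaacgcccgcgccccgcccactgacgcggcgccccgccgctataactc
Slc3a2: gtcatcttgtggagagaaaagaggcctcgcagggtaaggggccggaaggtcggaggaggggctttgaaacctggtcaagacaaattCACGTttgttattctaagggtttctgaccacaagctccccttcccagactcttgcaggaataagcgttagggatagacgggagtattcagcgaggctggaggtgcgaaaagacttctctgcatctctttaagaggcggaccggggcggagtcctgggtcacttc
Slc1a3: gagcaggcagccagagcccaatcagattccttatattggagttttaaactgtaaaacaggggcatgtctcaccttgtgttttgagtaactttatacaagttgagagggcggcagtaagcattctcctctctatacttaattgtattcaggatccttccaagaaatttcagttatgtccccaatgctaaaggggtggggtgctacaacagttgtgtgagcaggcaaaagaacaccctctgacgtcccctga
Slc38a10: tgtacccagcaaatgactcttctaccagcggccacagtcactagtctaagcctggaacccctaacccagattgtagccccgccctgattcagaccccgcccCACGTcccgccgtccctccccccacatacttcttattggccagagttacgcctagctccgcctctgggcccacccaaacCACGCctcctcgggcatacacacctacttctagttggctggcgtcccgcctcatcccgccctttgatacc
The Slc38a10 window held 2 cores, 149 to 145 and 70 to 66 bases before the start, and the Slc3a2 window held 1, from 164 to 160 bases before it. All 3 read in the opposite direction to the gene. The Slc38a2 and Slc1a3 windows held neither form. At least 1 core was found in 38.6% of all 32851 windows of this length and in 33 of 62 windows (53.2%) of the 45 members with an entry. The core of the amino acid response element, TGATGNAA on either strand, was found in 3.45% of all windows and in 3 member windows, those of Slc7a7 and Slc6a21. Sequence outside these windows was not searched, so a gene without a match may hold the element elsewhere. A match describes these letters only and is not evidence of binding.

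Values are log2 levels, so a difference of 1 is a 2-fold difference, and levels of different genes were not compared because each rests on its own probes. Array medians lay between 5.92 and 6.03. Vhl was lower in every deleted array than in any other, at 6.35 to 6.66 in VHL-KO/AKI and 7.01 to 7.36 in AKI kidneys, and at 6.62 to 6.70 in VHL-KO and 7.03 to 7.10 in Control kidneys. The proximal tubule marker Lrp2 was at 11.56 to 12.18 in VHL-KO/AKI and 11.15 to 11.78 in AKI kidneys, and at 12.71 to 12.97 in VHL-KO and 12.82 to 13.03 in Control kidneys. AKI 4 stood apart, with a mean correlation of 0.973 with the other arrays of its group against 0.988 to 0.989 for the others. Sex-linked transcripts divided the arrays at the same place as injury. Xist lay at 4.30 to 4.49 in VHL-KO/AKI and 4.16 to 5.08 in AKI kidneys, against 11.32 to 11.47 in VHL-KO and 10.23 to 11.19 in Control kidneys. The Y-linked mean (over Kdm5d, Uty and Eif2s3y) lay at 7.77 to 8.23 and 7.83 to 8.26 in the same injured groups, and at 4.81 to 4.88 in VHL-KO. In Control it was 4.96, 5.01 and, in Control 3, 7.43. Control 3 had Xist at 10.23 as well, so it carried both signals, and no label says why. Injury and sex-linked signal therefore cannot be told apart in any comparison of injured with uninjured kidneys.

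AKI against Control asked what glycerol injury, with water withdrawal, did to the carriers when Vhl was intact. Of 10 apical carriers 7 fell, of 8 basolateral carriers 3 fell and 1 rose, and of 12 carriers for general cell supply 4 rose. Slc7a12 fell by 6.43 on the log2 scale, the brush border carriers by 1.01 to 1.88 where they passed, and Slc38a2 and Slc7a5 rose by 1.52 and 1.29. In all, limma called 22 of 61 members (15 fell and 7 rose) at an adjusted p under 0.05. Of all genes, 28.1% were called (14.9% lower, 13.2% higher). At an unadjusted p under 0.05 the count was 31 members, beside 38.2% of all genes. In 23 members the groups did not overlap (15 lower, 8 higher), beside 27.3% of all genes (13.8% lower, 13.5% higher). The median difference of the members was 0.04 beside 0.02 over all genes.

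Among the 10 carriers of apical uptake, 7 fell, 0 rose and 3 did not pass, with a median difference of -1.19 beside 0.02 for all genes. Slc6a20b, a close relative of the imino acid carrier Slc6a20a, was at 9.23, 9.48, 9.75, 11.12 and 9.08 in AKI kidneys, against 11.51, 11.65 and 11.69 in Control kidneys. No AKI array reached a Control array, and AKI 4 came nearest. The difference was -1.88 (SE 0.388, limma adjusted p = 0.00219). Slc6a20a, which takes up proline, fell by 1.40 (SE 0.272, adjusted p = 0.00146).

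Slc6a19 carries neutral amino acids across the brush border, and its human counterpart is defective in Hartnup disorder. It was at 10.06, 9.65, 10.15, 11.26 and 9.54 in AKI kidneys, against 11.52, 11.24 and 11.61 in Control kidneys. The groups overlapped because AKI 4 lay just above Control 2. Slc6a19 fell by 1.33 (SE 0.294, adjusted p = 0.00347), and by 1.61 without AKI 4. Slc3a1, the heavy chain of cystine uptake, fell by 1.01 (adjusted p = 0.00107) and its light chain Slc7a9 by 1.27 (adjusted p = 0.000405). This pair is mutated in human cystinuria. The glutamate and aspartate carrier Slc1a1 fell by 1.13 and the proton-coupled carrier Slc36a1 by 1.24. The 3 apical carriers that did not pass were Slc6a18, a glycine and neutral amino acid carrier (-0.24, 95% interval -0.59 to 0.11), Slc36a2 (0.76, adjusted p = 0.0951) and Slc7a13 (2.66, adjusted p = 0.0836).

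Of the 8 basolateral carriers, 3 fell, 1 rose and 4 did not pass (median 0.16 beside 0.02). Slc7a8, a light chain that exchanges neutral amino acids, was at 9.73, 9.52, 9.54, 10.66 and 9.14 in AKI kidneys, against 11.77, 11.90 and 11.56 in Control kidneys. The groups were separate, and the fall was 2.02 (SE 0.255, adjusted p = 6.7e-05), or 4.07-fold. Slc7a7, which exports lysine, arginine and ornithine and is mutated in human lysinuric protein intolerance, was at 10.01, 9.81, 10.38, 11.65 and 9.86 in AKI kidneys, against 11.82, 12.02 and 11.84 in Control kidneys. AKI 4 lay close to the Control arrays and the other 4 AKI arrays well below them. The difference was -1.55 (SE 0.343, adjusted p = 0.00347). The uniporter Slc43a2 fell by 0.74 (adjusted p = 0.00326).

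Slc7a6, a relative of Slc7a7 found in many tissues, rose by 0.41 (adjusted p = 0.0403), a call that ended without any 1 of the 3 Control arrays (adjusted p = 0.069, 0.0932 and 0.133) or without VHL-KO/AKI 2 (0.052) or AKI 1, 3, 4 or 5 (0.0508 to 0.0698). The shared heavy chain Slc3a2 differed by 0.30 (adjusted p = 0.0941), and by 0.35 without AKI 4 (adjusted p = 0.0444). The glutamine carrier Slc38a3 differed by 0.13 (95% interval -0.26 to 0.53), the neutral amino acid exchanger Slc1a4 by 0.18 (-0.13 to 0.49) and Slc7a10, an exchanger of small neutral amino acids, by 0.24 (0.01 to 0.47). None of these 4 passed.

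Markers of several cell types moved in the same comparison. Of 10 proximal tubule markers, 8 fell and 0 rose, and their mean level was 10.35 to 11.78 in AKI kidneys, against 12.17 to 12.22 in Control kidneys. AKI 4 had the highest level of the AKI group for 14 of the 15 members that fell. For the 7 that rose, it was the highest in 3 and the lowest in 1. The shares over all genes were not counted. Of 5 thick ascending limb markers 4 fell, with a mean of 9.26 to 11.17 in AKI and 11.58 to 11.81 in Control kidneys. Of 5 injured tubule markers 4 rose (9.33 to 11.02 in AKI, 6.44 to 6.58 in Control kidneys), as did 4 of 5 neutrophil markers (5.43 to 6.44 in AKI, 4.62 to 4.72 in Control kidneys). In tissue RNA, fewer cells of a type and less RNA per cell cannot be told apart, and the part of these marker shifts in the falls and rises of carriers was not tested. AKI 4 had the highest proximal tubule mean (11.78) and the lowest injured tubule mean (9.33) of its group. Without AKI 4, 27 members were called (19 fell and 8 rose) beside 34.2% of all genes.

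Of 12 carriers for general uptake, 4 rose, 0 fell and 8 did not pass (median 0.17 beside 0.02). Slc38a2, which imports small neutral amino acids with sodium, was at 11.67, 11.55, 11.85, 11.65 and 11.65 in AKI kidneys, against 10.24, 10.04 and 10.18 in Control kidneys. The groups lay far apart and each was narrow. Slc38a2 rose by 1.52 (SE 0.16, adjusted p = 1.77e-05), or 2.87-fold.

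Slc7a5, the light chain that brings in leucine and other large neutral amino acids, was at 8.59, 8.10, 8.37, 8.45 and 8.15 in AKI kidneys, against 7.16, 6.84 and 7.12 in Control kidneys. Slc7a1, the main arginine and lysine importer of many cells, was at 7.87, 7.32, 8.06, 8.17 and 8.01 in AKI kidneys, against 6.89, 6.86 and 6.67 in Control kidneys. Both genes were higher in every AKI array than in any Control array. Slc7a5 rose by 1.29 (SE 0.172, adjusted p = 9.82e-05) and Slc7a1 by 1.08 (SE 0.167, adjusted p = 0.000303). Slc6a9, a glycine carrier, was at 10.27, 10.06, 10.59, 10.07 and 9.98 in AKI kidneys, against 8.87, 8.87 and 9.63 in Control kidneys. The groups were separate, and the highest Control value was that of Control 3, the array with both Xist and Y-linked signal. Slc6a9 rose by 1.07 (SE 0.165, adjusted p = 0.000286), and by 1.32 without Control 3.

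Slc7a12 showed the largest difference of any member in this comparison. It encodes an amino acid carrier of mouse kidney, where it is known to be higher in females. It was at 5.65, 6.22, 6.15, 8.34 and 5.60 in AKI kidneys, against 13.09, 13.00 and 12.38 in Control kidneys. No array of either group came near the other, and AKI 4 was the highest injured array. The difference was -6.43 (SE 0.541, adjusted p = 3.59e-06), or 86.3-fold lower. The Xist ranges of these groups did not overlap either, and the part of sex-linked signal in this fall cannot be told apart from that of injury.

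In the lists of amine, glutamate and remaining SLC36 and SLC38 carriers, 4 members passed and all 4 fell, with list medians of 0.08, 0.05 and -0.18 beside 0.02 for all genes. Slc6a13, which takes up GABA, betaine and taurine, was at 8.49, 8.47, 9.14, 10.34 and 8.15 in AKI kidneys, against 10.78, 10.77 and 10.60 in Control kidneys. Slc6a4, the serotonin carrier, was at 5.72, 5.69, 5.48, 6.85 and 5.57 in AKI kidneys, against 7.84, 7.82 and 7.39 in Control kidneys. Both were separate between the groups, with AKI 4 nearest to Control. Slc6a13 fell by 1.80 (SE 0.383, adjusted p = 0.00267) and Slc6a4 by 1.82 (SE 0.29, adjusted p = 0.000352). These were the 2 of 11 measured amine, GABA, creatine, proline and glycine carriers that passed. Slc38a10 fell by 0.77 (adjusted p = 0.000336) as the only 1 of 9 in the list of lysosomal and other SLC36 and SLC38 members. The glutamate carrier Slc1a2 fell by 0.53 (adjusted p = 0.0109) as the only 1 of 4 in the glutamate list.

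The opposite-strand genes rose as well. Slc6a19os was at 6.55, 6.53, 6.60, 5.62 and 6.42 in AKI kidneys, against 4.98, 5.20 and 5.19 in Control kidneys. Slc7a6os was at 6.77, 6.72, 7.06, 7.24 and 7.11 in AKI kidneys, against 6.53, 6.67 and 6.33 in Control kidneys. Neither gene overlapped between the groups. Slc6a19os rose by 1.22 (SE 0.272, adjusted p = 0.00355), while Slc6a19 fell. Slc7a6os rose by 0.47 (SE 0.14, adjusted p = 0.0207), a call that ended without Control 1 (adjusted p = 0.0567) or Control 3 (0.105). The strand that each probe set reads was not given in the sources used here.

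**Figure D1:**
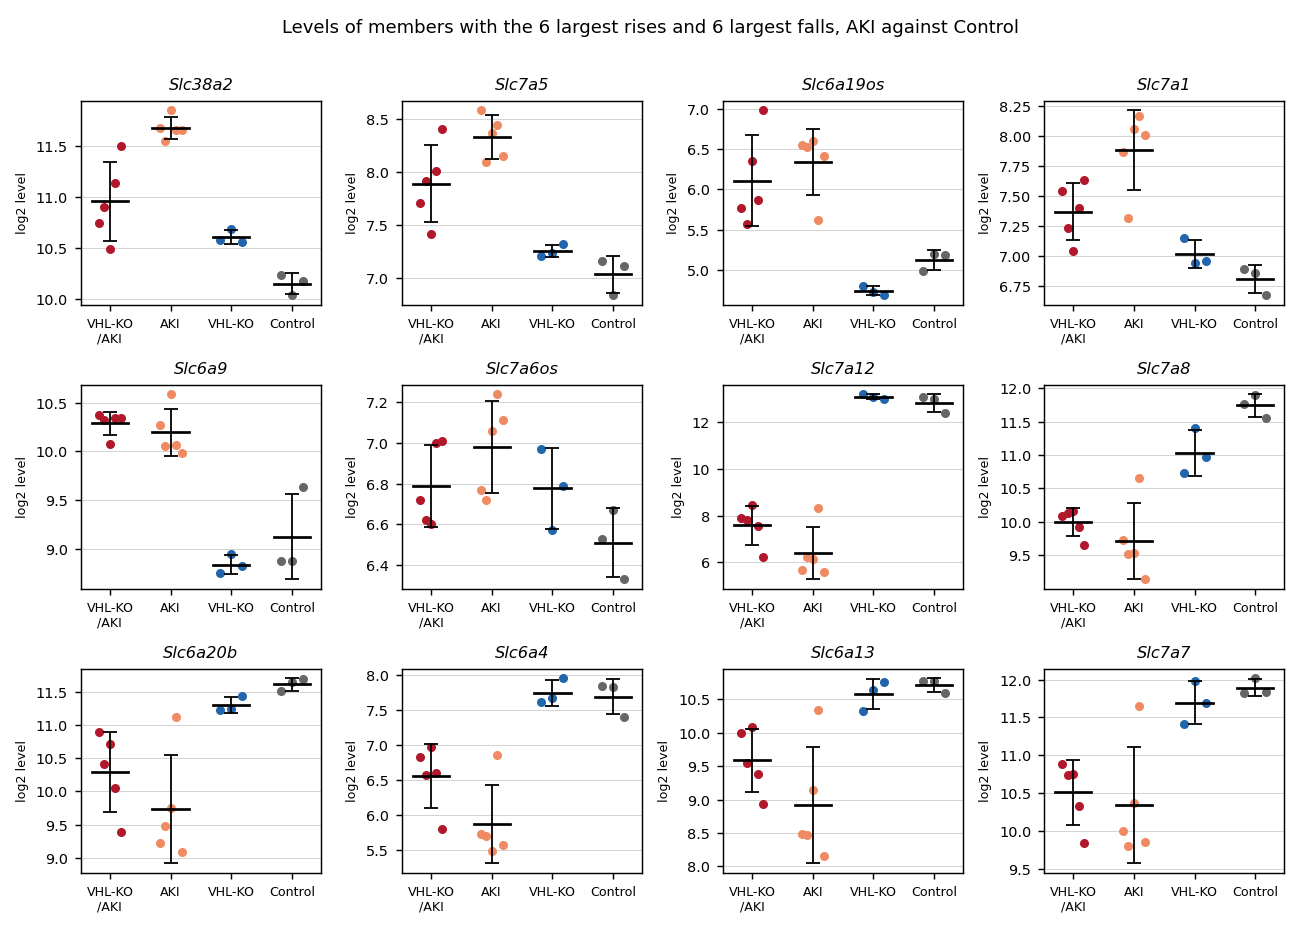
Log2 level of 12 members (6 largest falls and 6 largest rises of AKI against Control) in each array, by group, with dots for arrays, long bars for group means and whiskers for SD; each panel has its own axis. Slc7a12 lay at 5.60 to 8.34 in AKI and at 12.38 to 13.09 in Control kidneys, whereas Slc38a2 lay at 11.55 to 11.85 and at 10.04 to 10.24.

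Genes around the carriers were counted from lists of related genes. Of 19 measured genes of the ATF4 amino acid response, 14 rose and 2 fell, among them Asns, which makes asparagine (1.91, adjusted p = 6.7e-05), Chac1, which degrades glutathione (2.30), and Atf4 itself (1.62). Those that fell were the mitochondrial serine enzyme Shmt2 (-0.93) and the lipoprotein receptor Vldlr (-0.85). Of 11 measured partners and other carriers of amino acids and peptides, 0 rose and 3 fell: the peptide carrier Slc15a2 (-1.98), the aromatic amino acid carrier Slc16a10 (-0.65) and the mitochondrial ornithine carrier Slc25a15 (-0.71). Cltrn, which brings Slc6a19 to the brush border, differed by -0.40 (adjusted p = 0.0534). Of 11 enzymes of glutamine, glutamate and linked pathways, 0 rose and 6 fell, with Prodh2, which breaks down hydroxyproline (-2.06), and ornithine aminotransferase Oat (-1.26) among them.

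VHL-KO/AKI against AKI asked what the deletion did in injured kidneys, where both groups had low Xist and high Y-linked signal. Slc38a2 and the heavy chain Slc3a2 fell, and the glutamate carrier Slc1a3 and Slc38a10 rose. Of 61 members, limma called 4 (2 rose and 2 fell), or 6.56%, beside 3.88% of all genes (2.48% higher, 1.40% lower). The median difference was 0.09 beside -0.01 over all genes, and 18 members had an unadjusted p under 0.05, beside 18.7% of all genes. The groups did not overlap in 4 members (1 higher, 3 lower), beside 3.78% of all genes (2.19% higher, 1.58% lower). Of all genes called, 64.0% were higher as deposited and 47.3% after median centring, with the direction of the 4 members kept.

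Slc38a2 was at 10.75, 10.90, 10.49, 11.14 and 11.50 in VHL-KO/AKI kidneys, against the AKI values of 11.55 to 11.85 given above. Every VHL-KO/AKI array lay below every AKI array, and VHL-KO/AKI 5 came nearest. Slc38a2 fell by 0.72 (SE 0.139, adjusted p = 0.0133), or 1.64-fold. The difference lay between -0.60 and -0.85 whichever single array was left out, and passed each time. It did not pass when these 2 groups were fitted alone (adjusted p = 0.0672).

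Slc3a2 is the heavy chain that Slc7a5, Slc7a7, Slc7a8 and Slc7a6 need at the membrane. It was at 12.32, 12.44, 12.20, 12.61 and 12.73 in VHL-KO/AKI kidneys, against 12.90, 12.87, 13.13, 12.70 and 12.93 in AKI kidneys. The groups overlapped by 1 array, since VHL-KO/AKI 5 lay just above AKI 4. Slc3a2 fell by 0.45 (SE 0.109, adjusted p = 0.0359). The call ended without AKI 1, 3 or 5 or VHL-KO/AKI 1, 2 or 3 (adjusted p = 0.0634 to 0.105).

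Slc1a3, a glutamate and aspartate carrier best known from brain glia, was at 5.50, 6.01, 5.76, 5.80 and 5.69 in VHL-KO/AKI kidneys, against 5.15, 5.27, 5.39, 5.38 and 5.41 in AKI kidneys. The groups were separate, though the lowest VHL-KO/AKI array lay close to the highest AKI array. Slc1a3 rose by 0.43 (SE 0.088, adjusted p = 0.0169), and did not pass when these 2 groups were fitted alone (adjusted p = 0.0556). Its mean level was under 6, in the dimmer range of these arrays. Slc38a10 was at 8.39, 8.22, 8.53, 8.08 and 8.24 in VHL-KO/AKI kidneys, against 7.96, 7.71, 7.81, 8.16 and 7.65 in AKI kidneys. The groups overlapped through AKI 4 and VHL-KO/AKI 4. Slc38a10 rose by 0.43 (SE 0.105, adjusted p = 0.0348), which did not pass without AKI 2, 3 or 5 or VHL-KO/AKI 1, 2 or 3 (adjusted p = 0.0611 to 0.102), nor after any of 3 other scalings (0.062 to 0.0869).

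Of the 12 carriers for general uptake, 1 fell and 11 did not pass, with a median difference of -0.01 beside -0.01 for all genes and a range from -0.72 (Slc38a2) to 0.28 (Slc38a4, a neutral amino acid carrier). The difference was -0.51 for Slc7a1 (95% interval -0.82 to -0.20, adjusted p = 0.0627), -0.44 for Slc7a5 (-0.75 to -0.12, adjusted p = 0.12) and -0.35 for the neutral amino acid carrier Slc38a1 (-0.55 to -0.14, adjusted p = 0.0571). Without VHL-KO/AKI 5, all 3 passed, and 10 members were called, beside 7.98% of all genes. That array had the highest injured tubule mean (10.82) and the lowest proximal tubule mean (10.56) of its group. Of the 10 apical carriers 0 were called by limma and 1 had an unadjusted p under 0.05, with differences from -0.27 to 0.56. Slc3a1 was that member, at 0.37 (95% interval 0.03 to 0.72, adjusted p = 0.227).

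The differences for the other apical carriers were 0.56 for Slc6a20b (-0.16 to 1.28), 0.38 for Slc6a20a (-0.12 to 0.89), 0.37 for Slc1a1 (-0.10 to 0.84) and 0.34 for Slc36a2 (-0.26 to 0.93). They were 0.19 for Slc36a1, 0.17 for Slc6a18, 0.15 for Slc7a9, -0.17 for Slc7a13 and -0.27 for Slc6a19. Among the basolateral carriers that did not pass, they were 0.42 for Slc38a3 (0.08 to 0.76, adjusted p = 0.171), 0.28 for Slc7a8, 0.26 for Slc1a4, 0.17 for Slc7a7, 0.09 for Slc43a2, 0 for Slc7a10 and -0.37 for Slc7a6 (adjusted p = 0.106). Their intervals do not show that the groups were alike.

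AKI 4 changed the count more than any other array. Its injured tubule mean was 9.33, against 10.65 to 11.02 in the other AKI arrays. Its proximal tubule mean was 11.78, against 10.35 to 10.90, and its thick ascending limb mean 11.17, against 9.26 to 9.67. Leaving it out thus also shifted the marker levels of the AKI group, and their part in the added calls was not tested. Without AKI 4, 18 members were called (15 rose and 3 fell), beside 12.0% of all genes. The rises then included Slc7a12 (1.68, adjusted p = 0.00515), Slc6a13 (1.02), Slc6a4 (0.94), Slc6a20b (0.91), Slc6a20a (0.64), Slc36a2 (0.63), Slc1a1 (0.59), Slc3a1 (0.52) and Slc7a8 (0.51), together with Slc6a15 (0.53), Slc38a4 (0.45), Slc43a1 (0.41) and Slc7a4 (0.27). Slc6a17 then fell by 0.22, and Slc3a2 and Slc38a2 by 0.50 and 0.72. With AKI 4 kept, Slc7a12 was at 7.89, 7.82, 8.45, 7.54 and 6.23 in VHL-KO/AKI kidneys, and the difference from AKI was 1.20 (95% interval 0.20 to 2.20, adjusted p = 0.178). Of the 10 proximal tubule markers 0 were called by limma (4 at an unadjusted p under 0.05), and their mean was 10.56 to 11.40 in VHL-KO/AKI and 10.35 to 11.78 in AKI kidneys. Of 5 injured tubule markers 0 were called by limma (1 at an unadjusted p under 0.05). Their mean was 9.60 to 10.82 in VHL-KO/AKI and 9.33 to 11.02 in AKI kidneys. Of 5 neutrophil markers 2 fell, with a mean of 4.74 to 5.65 in VHL-KO/AKI and 5.43 to 6.44 in AKI kidneys. Of 5 thick ascending limb markers 1 rose (median 1.15), with a mean of 9.78 to 11.16 in VHL-KO/AKI and 9.26 to 11.17 in AKI kidneys, and of 5 collecting duct markers 1 rose (8.40 to 9.07 in VHL-KO/AKI, 8.16 to 8.81 in AKI kidneys). The part of these shifts in the carriers' differences was not tested.

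**Figure D2:**
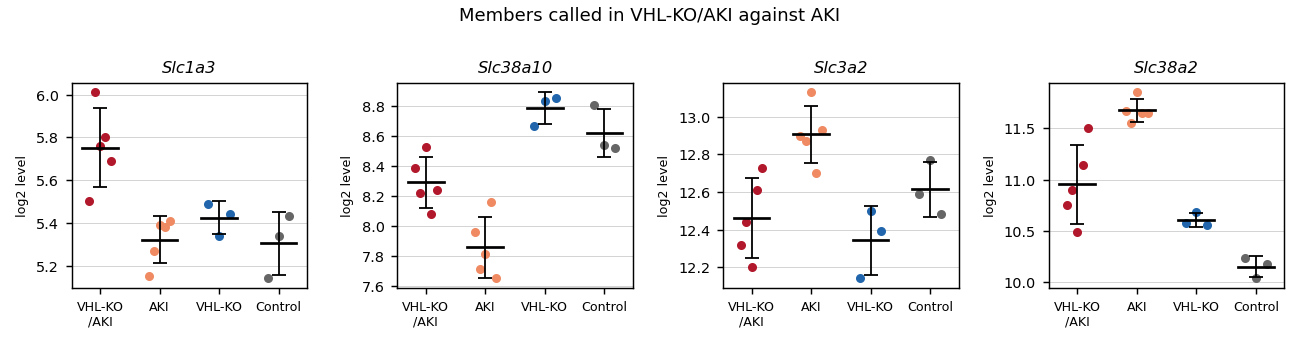
Log2 level in each array of the 4 members called between VHL-KO/AKI and AKI kidneys, by group, with dots for arrays, long bars for group means and whiskers for SD; each panel has its own axis. Slc38a2 and Slc1a3 do not overlap between these groups, whereas Slc3a2 and Slc38a10 overlap.

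Among the ATF4 response genes, 2 of 19 rose and 2 fell in VHL-KO/AKI against AKI. Atf3 (-1.50, adjusted p = 0.0378) and Atf4 (-0.63, adjusted p = 0.0496) fell, and Shmt2 (1.20) and Vldlr (0.95) rose. Asns, which passed between AKI and Control, differed by 0.19 (adjusted p = 0.699). Of the 11 partner genes limma called 0 (2 at an unadjusted p under 0.05). Of the 11 enzymes of glutamine and glutamate, the alanine aminotransferase Gpt2 rose by 0.90 (adjusted p = 0.0294) and the other 10 did not pass.

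VHL-KO/AKI against VHL-KO asked what injury did once Vhl was deleted. Slc7a12 was again far lower, several tubular carriers fell, and Slc7a13, Slc6a9 and Slc36a2 rose. Of 61 members 17 were called (8 rose and 9 fell), or 27.9%, beside 13.6% of all genes (4.66% higher, 8.91% lower). The median difference was 0.02 beside -0.01. At an unadjusted p under 0.05 the count was 26 members, beside 27.3% of all genes, and 25 members did not overlap (10 higher, 15 lower), beside 24.3% of all genes (9.42% higher, 14.9% lower). Of all genes called, 34.3% were higher as deposited and 59.6% after median centring. Of these 17 members, 10 were also called between AKI and Control. That comparison uses other arrays, but it shares the estimate of spread and the same split in Xist, so it is not independent. The share of all genes called in both comparisons was not counted.

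Of the apical carriers, 2 rose, 2 fell and 6 did not pass (median -0.61 beside -0.01). Slc3a1 was at 12.25, 11.91, 12.21, 11.80 and 11.61 in VHL-KO/AKI kidneys, against 12.57, 12.72 and 12.72 in VHL-KO kidneys. Slc7a9 was at 9.66, 9.53, 9.84, 9.43 and 9.37 in VHL-KO/AKI kidneys, against 10.29, 10.35 and 10.57 in VHL-KO kidneys. Both chains of cystine uptake were lower in every injured array. Slc3a1 fell by 0.72 (SE 0.187, adjusted p = 0.0193) and Slc7a9 by 0.84 (SE 0.205, adjusted p = 0.0142). Slc36a2, a proton-coupled carrier of glycine and proline, was at 6.05, 6.63, 6.89, 6.83 and 6.79 in VHL-KO/AKI kidneys, against 5.33, 5.52 and 5.53 in VHL-KO kidneys. It was higher in all injured arrays and rose by 1.18 (SE 0.321, adjusted p = 0.0241).

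Slc7a13 is an aspartate, glutamate and cystine carrier that pairs with Slc3a1 in the late proximal tubule, and in mouse kidney it is known to be higher in males. It was at 11.28, 10.34, 11.03, 10.34 and 9.75 in VHL-KO/AKI kidneys, against 6.10, 5.14 and 5.67 in VHL-KO kidneys. The groups lay several units apart, and the rise was 4.91 (SE 1.09, adjusted p = 0.00784), or 30.1-fold. In AKI kidneys it was at 10.00, 10.04, 11.25, 12.38 and 9.91, against 5.52, 6.44 and, in Control 3, 12.21 in Control kidneys. Control 3, the uninjured array with both Xist and Y-linked signal, thus lay among the injured arrays. Without it, Slc7a13 rose by 4.74 in AKI against Control (adjusted p = 0.000161), a comparison that did not pass with it.

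The 6 apical carriers that did not pass had differences of -1.01 for Slc6a20b (adjusted p = 0.101), -0.79 for Slc6a20a (adjusted p = 0.0704), -0.62 for Slc6a19 (adjusted p = 0.19), -0.59 for Slc1a1 (adjusted p = 0.142), -0.32 for Slc36a1 and -0.15 for Slc6a18. Of 10 proximal tubule markers 5 fell, and their mean was 10.56 to 11.40 in VHL-KO/AKI and 11.76 to 11.96 in VHL-KO kidneys. Their part in the carriers' fall was not tested.

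Of the 8 basolateral carriers 2 fell and 1 rose. Slc7a8 was at 10.09, 10.13, 10.17, 9.93 and 9.66 in VHL-KO/AKI kidneys, against 10.73, 11.40 and 10.97 in VHL-KO kidneys. Slc7a7 was at 10.89, 10.74, 10.75, 10.34 and 9.85 in VHL-KO/AKI kidneys, against 11.42, 11.98 and 11.69 in VHL-KO kidneys. Both exit carriers were lower in every injured array, Slc7a8 with a fall of 1.04 (SE 0.255, adjusted p = 0.0142) and Slc7a7 with a fall of 1.18 (SE 0.343, adjusted p = 0.033). Slc1a4 was at 8.77, 8.27, 8.15, 8.19 and 8.03 in VHL-KO/AKI kidneys, against 7.78, 7.91 and 7.51 in VHL-KO kidneys. It was higher in all injured arrays and rose by 0.55 (SE 0.146, adjusted p = 0.0218). The other basolateral carriers did not pass, with differences of 0.54 for Slc38a3 (adjusted p = 0.0672), 0.25 for Slc7a10, 0.12 for Slc3a2, 0.02 for Slc7a6 and -0.31 for Slc43a2.

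Of the 12 carriers for general uptake 3 rose and 1 fell. Slc6a9 was at 10.37, 10.32, 10.08, 10.34 and 10.34 in VHL-KO/AKI kidneys, against 8.75, 8.94 and 8.82 in VHL-KO kidneys. Slc7a5 was at 7.71, 7.92, 7.42, 8.01 and 8.41 in VHL-KO/AKI kidneys, against 7.21, 7.24 and 7.32 in VHL-KO kidneys. Neither overlapped, and Slc6a9 showed the wider gap. Slc6a9 rose by 1.45 (SE 0.165, adjusted p = 8.95e-05) and Slc7a5 by 0.64 (SE 0.172, adjusted p = 0.0231). Slc7a3, a carrier of arginine and lysine, rose by 0.21 (adjusted p = 0.0471) and Slc38a1 fell by 0.35 (adjusted p = 0.0491), both close to the threshold and lost in 13 and 12 of the 16 fits that left out 1 array. Slc38a2, at 10.58, 10.69 and 10.56 in VHL-KO kidneys, differed by 0.35 (SE 0.16, 95% interval 0 to 0.69, adjusted p = 0.178) and overlapped. Slc7a1 differed by 0.35 as well (adjusted p = 0.193).

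In the other lists, Slc7a12 was at 13.20, 13.10 and 12.98 in VHL-KO kidneys and fell by 5.51 (SE 0.541, adjusted p = 3.49e-05), or 45.4-fold. Slc6a4 was at 6.82, 6.57, 6.96, 6.60 and 5.79 in VHL-KO/AKI kidneys, against 7.61, 7.66 and 7.95 in VHL-KO kidneys. Slc6a19os was at 5.77, 5.57, 6.35, 5.87 and 6.99 in VHL-KO/AKI kidneys, against 4.80, 4.73 and 4.69 in VHL-KO kidneys. Both genes were separate between the groups. Slc6a4 fell by 1.19 (SE 0.29, adjusted p = 0.0136) and Slc6a19os rose by 1.37 (SE 0.272, adjusted p = 0.00413). Slc38a10 fell by 0.50 (adjusted p = 0.0131), Slc6a17, a carrier of synaptic vesicles in brain, by 0.39 (adjusted p = 0.0024), and Slc1a3 rose by 0.33 (adjusted p = 0.0441). The Slc1a3 call ended in 11 of the 16 fits that left out 1 array.

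The 3 VHL-KO arrays carried much of this comparison. Without VHL-KO 1, 2 or 3 the count of called members was 10, 9 and 6, beside 8.80%, 9.27% and 8.44% of all genes, and without VHL-KO/AKI 4 it was 11, beside 10.0%. The calls of Slc36a2, Slc7a5 and Slc7a7 ended in each of these 4 cases, and that of Slc7a7 also without VHL-KO/AKI 5. Of the ATF4 response genes 10 of 19 rose and 0 fell, with Asns at 1.43 and Psat1, an enzyme of serine synthesis, at 1.20. Of 11 partners 3 fell, the peptide carriers Slc15a2 (-1.24) and Slc15a1 (-0.40) and Slc16a10 (-0.46). Of the enzymes of glutamine and glutamate 3 fell and 1 rose.

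**Figure D3:**
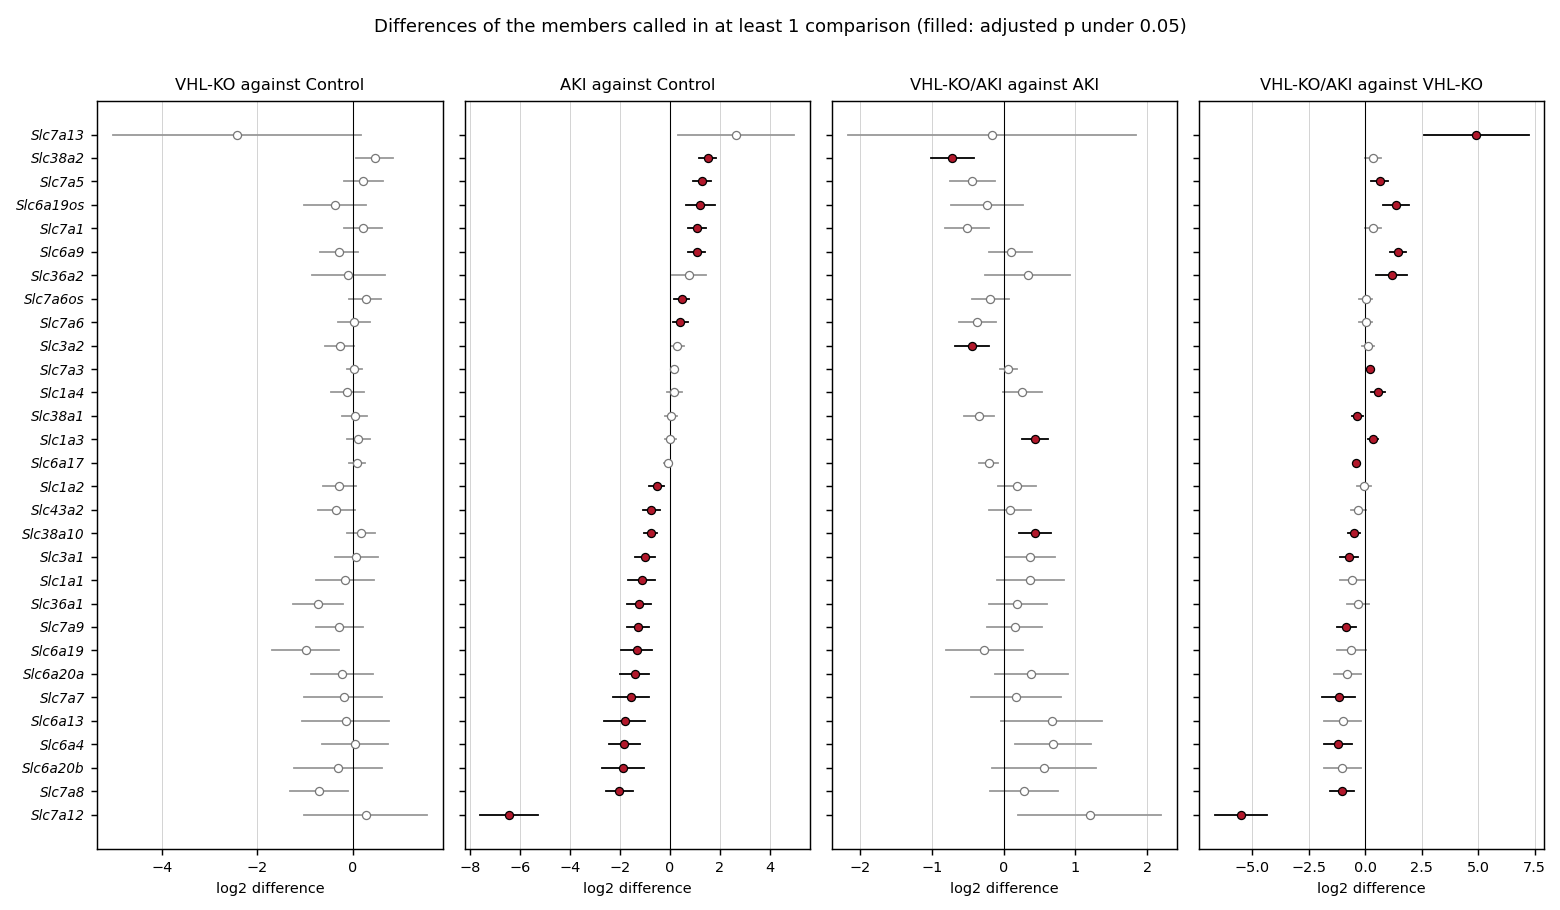
Log2 differences (dots) with 95% intervals (lines) of the 30 members called at least once, in a panel for each comparison with its own horizontal scale; filled dots have a limma adjusted p under 0.05. Slc7a12 lies farthest to the left in both comparisons of injured with uninjured kidneys (-6.43 and -5.51), and no dot is filled in VHL-KO against Control.

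Some members were set against the sex-linked signal of each array. Slc7a13 lay between 9.75 and 12.38 in the 11 arrays with Y-linked signal, Control 3 included, and between 5.14 and 6.44 in the other 5. Control 3 also had Xist, at 10.23, so its values do not stand for an uninjured kidney with Y-linked signal alone. Slc6a9 was at 9.63 in Control 3, above the 8.75 to 8.94 of the other uninjured arrays and below the 9.98 to 10.59 of the injured ones. Slc7a12 was at 12.38 in Control 3, the lowest of the uninjured arrays but far above the 5.60 to 8.45 of the injured ones. Slc36a2 was at 5.55 in Control 3, within the 5.33 to 5.69 of the uninjured arrays. With Xist minus the Y-linked mean as a covariate, limma called 0 members in AKI against Control and 0 in VHL-KO/AKI against VHL-KO (4 and 1 at an unadjusted p under 0.05, beside 3.57% and 1.80% of all genes). In both comparisons 0 of 19938 genes were called with it, so these counts are not particular to the carriers. The median standard error of all genes was then 4.38 and 5.14 times as large. In VHL-KO/AKI against AKI the same 4 members passed with the covariate, with Slc38a2 at -0.72 (adjusted p = 0.0205). Both groups had similar Xist and Y-linked levels, so the covariate could change little there. The median standard error was 1.03 times as large.

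**Figure D4:**
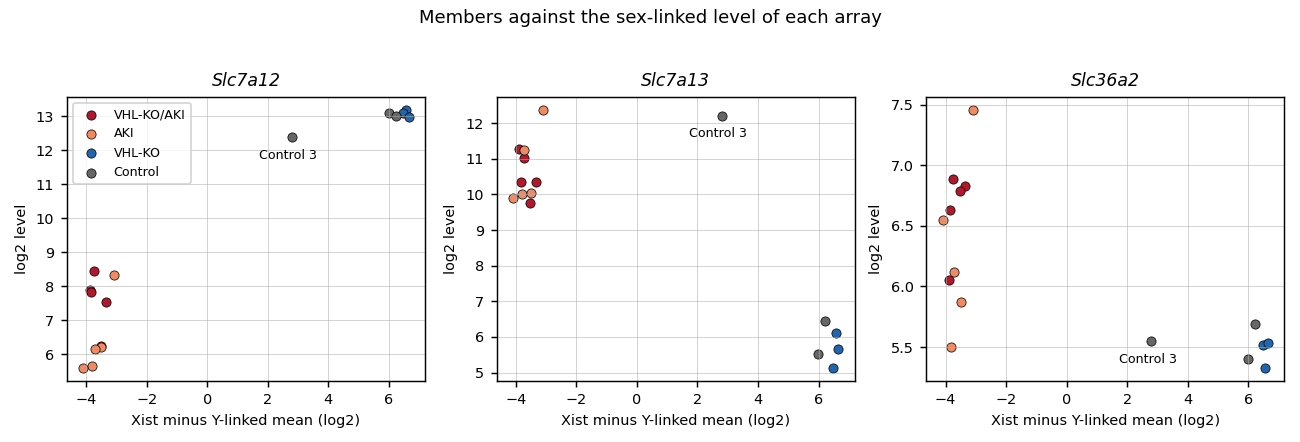
Log2 level of Slc7a12, Slc7a13 and Slc36a2 (vertical axes) against Xist minus the Y-linked mean of the same array (horizontal axes, log2), with 1 point per array and colours for the groups. Control 3 lies between the injured arrays and the other uninjured arrays on the horizontal axis; there Slc7a13 is at 12.21, Slc7a12 at 12.38 and Slc36a2 at 5.55.

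The comparison of VHL-KO with Control kidneys was about the deletion without injury. Sex-linked signal differed here too, since the Y-linked mean was 4.81 to 4.88 in VHL-KO kidneys but 7.43 in Control 3. Control 3 enters the interaction below as well, and its part was not tested beyond leaving it out. Without Control 3, 0 members were called in this comparison, beside 0.171% of all genes. Limma called 0 of 61 members, beside 0.527% of all genes (0.476% higher, 0.0502% lower), and 6 had an unadjusted p under 0.05, beside 8.35% of all genes. The median difference was -0.02 beside 0.02. Of the members, 17 did not overlap between the 3 arrays of each group (7 higher, 10 lower), beside 17.2% of all genes (11.8% higher, 5.33% lower).

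Slc6a19 was at 10.23, 10.87 and 10.34 in VHL-KO kidneys, against the Control values of 11.24 to 11.61 given above. The groups were separate, with a difference of -0.98 (95% interval -1.68 to -0.28, adjusted p = 0.324). Slc36a1 was at 8.93, 9.21 and 8.99 in VHL-KO kidneys, against 9.44, 9.78 and 10.08 in Control kidneys, also separate. It differed by -0.72 (-1.25 to -0.20, adjusted p = 0.335) and Slc7a8 by -0.71 (-1.32 to -0.10, adjusted p = 0.478). On the higher side were Slc43a3, which carries purine bases (0.67, adjusted p = 0.324), Slc38a2 (0.46, 95% interval 0.08 to 0.84, adjusted p = 0.454) and Slc36a4, a proton-coupled carrier (0.37, adjusted p = 0.128). Without AKI 4, which enters through the shared estimate of spread, Slc6a19 (adjusted p = 0.0238) and Slc43a3 (0.0472) passed.

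The other apical carriers differed by -0.31 for Slc6a20b, -0.28 for Slc7a9, -0.23 for Slc6a20a, -0.17 for Slc1a1, -0.09 for Slc36a2, 0.08 for Slc3a1 and 0.09 for Slc6a18. Slc7a13 differed by -2.42 (95% interval -5.02 to 0.18), and by -0.34 without Control 3. The other basolateral carriers differed by -0.34 for Slc43a2, -0.27 for Slc3a2, -0.19 for Slc7a7, -0.11 for Slc1a4, -0.01 for Slc7a10, 0.01 for Slc38a3 and 0.02 for Slc7a6. Of 10 proximal tubule markers 0 were called by limma (1 at an unadjusted p under 0.05), with means of 11.76 to 11.96 in VHL-KO and 12.17 to 12.22 in Control kidneys.

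The interaction asked whether the deletion acted differently in injured and in uninjured kidneys, as the difference VHL-KO/AKI minus AKI less the difference VHL-KO minus Control. Limma called 0 of 61 members, beside 0.0100% of all genes, and 13 had an unadjusted p under 0.05, beside 12.0% of all genes. Slc38a2 had the smallest p, with an interaction of -1.17 (SE 0.227, 95% interval -1.66 to -0.69, adjusted p = 0.0898), made of -0.72 in injured and 0.46 in uninjured kidneys. It passed without AKI 4 (adjusted p = 0.0284) and without VHL-KO/AKI 5 (0.0088). Slc7a1 (-0.73) and Slc7a5 (-0.66) had the same sign, and Slc7a8 (0.99) and Slc36a1 (0.92) the opposite one, with adjusted p between 0.236 and 0.295. Without AKI 4, Slc36a1, Slc6a19 and Slc7a8 passed beside Slc38a2, with 3.11% of all genes called.

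In all, 30 members were called in at least 1 comparison and 31 in none. The share of all genes called at least once was not counted, and AKI against Control alone called 28.1% of all genes. Of the 24 members with a mean under 6, only Slc1a3, Slc7a3 and Slc6a19os were called, and the other 21 had differences between -0.18 and 0.34 in the 4 comparisons of groups. These were Slc1a6, Slc1a7, Slc36a3, Slc38a4, Slc38a5, Slc38a8, Slc38a11, Slc43a1, Slc6a2, Slc6a3, Slc6a5, Slc6a7, Slc6a11, Slc6a14, Slc6a16, Slc6a21, Slc7a2, Slc7a4, Slc7a10, Slc7a14 and Slc7a15. The table gives no detection call, so these genes were not separated into present and absent. The 10 brighter members without a call were Slc1a5, Slc36a4, Slc38a3, Slc38a6, Slc38a7, Slc38a9, Slc43a3, Slc6a8, Slc6a15 and Slc6a18, with differences from -0.43 (Slc38a7 in AKI against Control) to 0.67 (Slc43a3 in VHL-KO against Control). Among them are Slc1a5, a glutamine exchanger, Slc6a8, which carries creatine, and Slc38a9, an arginine sensor of the lysosome.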

How the data were processed

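Log2 levels of 35556 probe sets, deposited by the authors, were used as given. Partek version 6.4 and RMA, a method that corrects background and summarises probes, are named per the submitters' processing notes; how and in which order they were run is not given in the sources used here, nor is a build. Gene symbols came from GEO's platform annotation, which can be old. Rows with exactly 1 symbol (21789) were kept, 1621 with several and 12146 with none were left out, and the row with the highest mean over 16 arrays stood for each gene (999 genes and 2 members, Slc38a1 and Slc38a9, had several rows).

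Groups came from the titles. Limma 3.58.1 under R 4.3.3 fitted 1 mean per group over all 16 arrays (12 residual and 2.83 prior degrees of freedom), 2-sided, with Benjamini-Hochberg adjustment over 19938 genes and calls under 0.05. Errors of differences are limma standard errors and intervals are 95% intervals. The number of arrays limits the precision. The members and lists were chosen with earlier results of these data known.

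By the rule for named genes, values in every array are given for called members with the 6 largest rises and falls of each comparison (Slc6a19, Slc36a1 and Slc7a13, shown more often, were added after their values were seen); other called members, and uncalled apical and basolateral ones, are given by their difference. Promoters came from RefSeq (GRCm38.p6) by symbol. The code was tested on simulated data. Alternatives covered the row per gene, a filter on dim genes (mean under 6), 3 scalings, trend and robust variance, array weights, a replicate block, fits of only the compared groups, a sex-linked covariate (Xist minus the Y-linked mean), each array left out, and, chosen after seeing the data, Control 3 and AKI 4 left out together.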

Additional observations from a re-analysis of the deposited data

Results flagged for a closer look

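Single arrays far from the rest of their group (a gap to the nearest array of more than 0.71 of the group's range, for groups of 5) were found in 12 of 122 tests of a member in an injured group. Chance marks about 1 in 20 groups, but members measured on the same array are not independent tests. The share over all genes was not counted. Of the 12, 7 were in AKI 4, the array with the lowest mean correlation with its group over all genes (0.973).

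In AKI 4, Slc7a12 was at 8.34 (5.60 to 6.22 in the other AKI arrays), Slc1a1 at 11.35 (10.09 to 10.42), Slc6a4 at 6.85 (5.48 to 5.72) and Slc43a1 at 5.58 (4.61 to 4.82), all higher. In the same array, Slc38a7 was at 6.62 (7.41 to 7.63), Slc38a9 at 8.09 (8.71 to 8.86) and Slc6a19os at 5.62 (6.42 to 6.60), all lower. In AKI 2, Slc6a3 was at 5.25 (4.91 to 4.98) and Slc6a21 at 4.25 (4.36 to 4.40). In VHL-KO/AKI 3, Slc6a9 was at 10.08 (10.32 to 10.37 in the other VHL-KO/AKI arrays) and Slc6a21 at 4.30 (4.27 to 4.28). In VHL-KO/AKI 4, Slc1a7 was at 4.40 (4.57 to 4.63). Slc43a1, Slc6a19os, Slc6a3, Slc6a21 and Slc1a7 had means under 6, in the dimmer range of these arrays. The rule is relative to the group's range, so a small gap can meet it, as for Slc6a21.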

How the results depend on the processing

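The counts of called members were 22 for AKI against Control, 17 for VHL-KO/AKI against VHL-KO, 4 for VHL-KO/AKI against AKI, and 0 for VHL-KO against Control and for the interaction. With array weights they were 26 for VHL-KO/AKI against VHL-KO (21.7% of all genes), 17 for VHL-KO/AKI against AKI (14.4%), 3 for VHL-KO against Control (1.60%) and 4 for the interaction (4.44%). With the compared groups fitted alone, VHL-KO/AKI against AKI gave 0 (1.12% of all genes), and with Control 3 and AKI 4 both left out it gave 15 (11.0%). Leaving out 1 array at a time gave 20 to 27 for AKI against Control (21.3% to 34.2% of all genes). It gave 6 to 24 for VHL-KO/AKI against VHL-KO (8.44% to 19.6%) and 2 to 18 for VHL-KO/AKI against AKI (1.15% to 12.0%). VHL-KO against Control had 0 to 2 (0.171% to 1.18%) and the interaction 0 to 4 (0% to 3.11%). With the sex-linked level as covariate, AKI against Control and VHL-KO/AKI against VHL-KO both gave 0, and 10 named differences reversed without passing: Slc6a9 to -0.75 in AKI against Control, and in VHL-KO/AKI against VHL-KO Slc6a9 to -0.70, Slc7a13 to -11.03, Slc1a4 to -0.46, Slc1a3 to -0.11, Slc38a10 to 0.04, Slc3a1 to 0.17, Slc7a9 to 0.22, Slc7a8 to 0.49 and Slc6a4 to 0.73. The covariate divides the arrays almost as injury does, and within groups it varies most in Control, through Control 3. The Y-linked mean was 7.43 there, against 5.01 and 4.96 in the other Control arrays. The reversed values thus rest largely on 1 array and do not measure injury apart from sex-linked signal. Of 43 named calls, 26 passed with any single array left out, and median centring, quantile and cyclic loess scaling ended 2, 4 and 5. The largest shift of the median of all genes under these scalings was 0.08. Median centring moved the share of higher calls among all genes to 78.3%, against 90.5% as deposited, for VHL-KO against Control. The replicate numbers do not pair the arrays by any label, and same-numbered arrays deviated together with r over 0.1 in 2 of 14 pairs (range -0.38 to 0.20). With the replicate block, 20, 13, 3, 0 and 0 members were called in the order given first, and 9 of the 43 calls ended. The shares of all genes called with it were 22.7%, 9.64%, 3.56%, 0.326% and 0.00502% in the same order.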
